A study of Homo sapiens with 9 samples.

Results

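The genes described here were 45 targets and regulators of NRF2 together with the glutathione, thioredoxin, peroxiredoxin and ferritin genes of antioxidant defence, out of 58395 genes in each table. They were chosen by name, with earlier results of these data known. Their expected counts and TPM, an abundance scaled for transcript length and library size, were compared in HCT116, a long-established line from a human colon carcinoma. All 9 RNA-seq libraries came from cells carrying shSTBD1, a short hairpin RNA against STBD1, a glycogen-binding protein linked to the autophagic breakdown of glycogen. There were 3 groups of 3 libraries. One carried the plvx neo vector alone, one STBD1 WT from a hairpin-resistant construct, and one the STBD1 W203C mutant, in which a cysteine replaces a tryptophan. Cells without the hairpin were not analysed here, so every group shares the knockdown. Cells were infected with lentivirus and drug-selected, and since the sources do not tie the libraries of a group to separate infections, effects of the construct and of making the cells cannot be told apart. For both constructs the name of each deposited table contradicts its sample label: tables named for the wild type belong to samples labelled as the mutant, and the reverse. The per-library values in the study's supplementary expression table carry the construct names of the tables, not those of the labels. Groups here follow the labels, and STBD1 WT and STBD1 W203C below mean the libraries labelled so. Were the table names right instead, higher and lower between the constructs would be exchanged, and what is given for one construct relative to plvx neo would belong to the other.

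NRF2, encoded by NFE2L2, is the transcription factor that raises the cell's antioxidant and detoxifying capacity. KEAP1 binds it as the substrate adaptor of a CUL3 ubiquitin ligase and keeps it short-lived. When electrophiles or oxidants modify KEAP1, or when the autophagy receptor SQSTM1 sequesters it, NRF2 accumulates, pairs with a small MAF protein and binds antioxidant response elements in promoters and enhancers. Its targets make and recycle glutathione, keep thioredoxin reduced, detoxify quinones and haem, and store iron. NRF2 is controlled chiefly at the level of protein stability, which RNA levels do not measure.

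Total expected counts, on which the precision of every value depends, were 16.9 to 23.3 M per library. Chi-square per gene between replicates was 2.12 to 3.87, so each pair of replicates differed by more than sampling noise. STBD1 itself was at 2.75 to 3.84 TPM in plvx neo, 10.8 to 10.9 TPM in STBD1 WT and 8.37 to 10.3 TPM in STBD1 W203C. Together with the overlapping readthrough gene FAM47E-STBD1, which took most of the construct signal, it was at 4.12 to 5.62, 52.3 to 57.0 and 43.5 to 47.9 TPM. Of 8 epithelial and colon markers, 6 were above 1 TPM in every library, whereas VIL1 stayed at or below 0.08 TPM and LGALS4 at or below 1.42 TPM. Their summed level was 3798 to 3899 TPM in plvx neo, 3393 to 3528 in STBD1 WT and 3177 to 3437 in STBD1 W203C. Of 4 leukocyte markers, 3 were below 1 TPM in every library, and of 5 fibroblast and endothelial markers 4 were. The exceptions were CD68, at 2.17 to 2.41 TPM in plvx neo, 3.86 to 6.47 in STBD1 WT and 1.33 to 2.01 in STBD1 W203C, and COL1A1, at 12.6 to 21.6 TPM over all libraries. The difference between gene length and effective length, which follows the length of the sequenced fragments, had a median of 240 to 247 bases in the plvx neo libraries, 250 to 263 in STBD1 WT and 245 to 257 in STBD1 W203C. The part of these values in the results was not tested.

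The 45 genes together made up 1.13% to 1.28% of all TPM. Levels compared between genes are given in TPM, which accounts for length. The ferritin chains FTH1 and FTL, which store iron, were the most abundant, with means over the 9 libraries of 3609 and 1724 TPM. PRDX1 (1086 TPM), a cytosolic peroxiredoxin, GSTP1 (937 TPM), a glutathione transferase, and TXN (537 TPM), thioredoxin itself, came next. In all, 17 genes were above 100 TPM. NQO1, the quinone reductase often used as a readout of NRF2, stood at 459 TPM, whereas the haem oxygenase HMOX1 stood at 25.7 TPM. NFE2L2 and KEAP1 were at 40.5 and 68.1 TPM. The 6 genes below 2 TPM were SLC40A1 (0.92 TPM), AKR1C3 (0.91 TPM), AKR1C1 (0.62 TPM), AKR1B10 (0.59 TPM), AKR1C2 (0.22 TPM) and GPX2 (0.14 TPM). Low members of the aldo-keto reductase family stood out beside their abundant relative AKR1B1 (50 TPM), and AKR1C1, AKR1C2 and AKR1C3 share sequence that the counting may have divided between them.

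**Figure D1:**
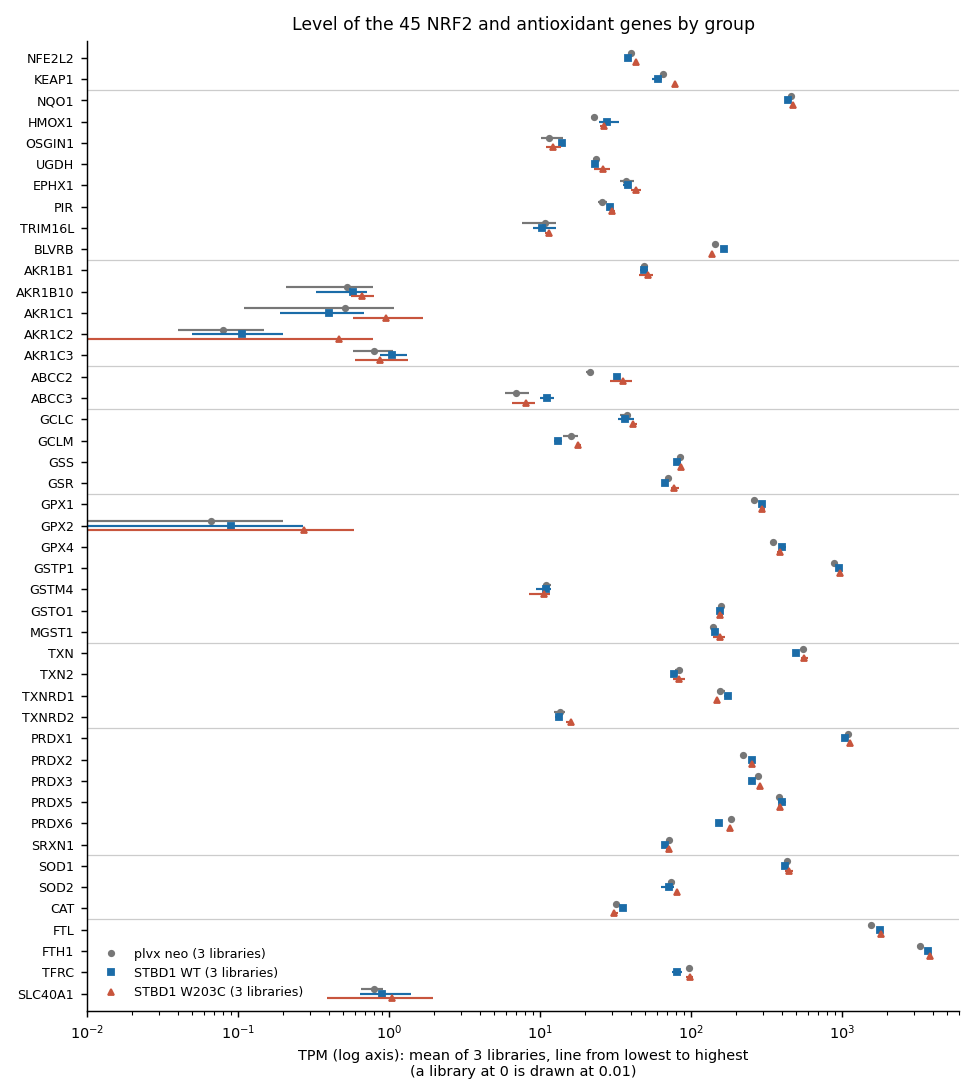
Level of each of the 45 genes in TPM on a log axis, with the mean of 3 libraries per group as a point and a line from the lowest to the highest library; grey lines part the functional groups. Means over the 9 libraries run from 3609 TPM for FTH1 to 0.14 TPM for GPX2, and a library at 0 is drawn at 0.01.

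Promoter sequence is shown for the members that carried a strict match to the antioxidant response element and whose RNA differed between groups. It is also shown for GSTP1, an abundant member that passed no comparison with all libraries kept and no correction for GC content and length. The RefSeq promoters used (GRCh38.p14) ran from 250 bases before to 50 bases after each start site, and 34 of the 45 genes had one, with 51 start sites in all. The motif TGACNNNGC, read on both strands, was in 10 of the 51 promoters (19.6%) and in 13.3% of 35116 promoters of all genes. The looser TGANNNNGC was in 27 (52.9%) against 41.8% of all, and the AP-1 element TGACTCA, which overlaps the strict motif in part of its matches, in 3 (5.88%) against 4.95%. Strict matches were in 9 genes, KEAP1, GCLM, TXNRD1, GSTP1, GSTO1, EPHX1, GPX2, MGST1 and PIR. Capitals mark the match. On lines marked reverse the motif lies on the strand opposite to the gene, so its reverse complement is read. The number of bases is the distance of the first capital before the start site.
KEAP1, 54 bases, forward, chr19:10502807-10502835, minus strand: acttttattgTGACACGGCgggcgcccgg
KEAP1, 31 bases, reverse, chr19:10502784-10502812, minus strand: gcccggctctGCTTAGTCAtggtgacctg
GCLM, 34 bases, reverse, chr1:93909446-93909474, minus strand: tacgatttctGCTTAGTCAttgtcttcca
TXNRD1, 99 bases, forward, chr12:104215670-104215698, plus strand: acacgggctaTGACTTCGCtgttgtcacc
TXNRD1, 8 bases, reverse, chr12:104215761-104215789, plus strand: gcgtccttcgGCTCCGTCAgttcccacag
TXNRD1, 102 bases from a further start site, reverse, chr12:104286920-104286948, plus strand: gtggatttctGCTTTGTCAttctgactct
GSTP1, 66 bases, forward, chr11:67583736-67583764, plus strand: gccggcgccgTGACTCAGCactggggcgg

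The reverse matches of KEAP1 and GCLM held the same 9 letters as read on the gene's strand, GCTTAGTCA. The GSTP1 match overlaps TGACTCA. A match to these letters is a description and shows no binding. A promoter without a strict match may hold an element outside the 300 bases read. That of NQO1 had no strict match but had a looser one, 119 bases before the start site.

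Log2 fold changes are STBD1 WT relative to plvx neo, STBD1 W203C relative to STBD1 WT (between the constructs) and STBD1 W203C relative to plvx neo, and values given for the 3 comparisons keep that order. Each pair of groups was compared across all genes with edgeR's quasi-likelihood test on the rounded expected counts, and a gene was counted as higher or lower at a Benjamini-Hochberg adjusted p below 0.05 over all genes tested. AKR1C2 and GPX2 had too few counts to be tested, which left 43 of the 45. For STBD1 WT against plvx neo, 27.8% of 15289 genes were changed, 13.9% higher and 13.9% lower. Of the 43, 17 were changed (39.5%), 11 higher and 6 lower, with a median log2 fold change of 0.0037 against 0.0061 for all genes tested. Between the constructs, 27.9% of 15052 genes were changed, 14.5% higher and 13.4% lower, and 15 of the 43 were (34.9%), 10 higher and 5 lower, with a median of 0.05 against -0.0078. For STBD1 W203C against plvx neo, 5.7% of 15081 genes were changed, 3.03% higher and 2.67% lower, and 7 of the 43 were (16.3%), each of them higher, with a median of 0.041 against -0.0031. Values per library are given in CPM, the expected count scaled to a common library size after TMM normalisation. In CPM, libraries of the 2 groups compared were fully separated for 22 of the 43 in the first comparison (51.2%, against 40% of all genes), for 17 in the second (39.5% against 41.1%) and for 11 in the third (25.6% against 23.6%). Any pair of these comparisons shares the 3 libraries of 1 group, so they are not independent, and each gene's values are given side by side. In bulk RNA, a difference in the share of cells expressing a gene and one in the RNA per cell cannot be told apart. Counted over the 3 comparisons, 22 of the 43 tested genes changed in at least 1 (51.2%, against 37.6% of 15460 genes) and 21 in none. The shares over all genes were not matched to the 43 for abundance, and the part of abundance in these gaps was not tested.

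Most changes were small. Among the changed genes the median absolute log2 fold change was 0.17, 0.22 and 0.17 in the 3 comparisons, and ABCC2, AKR1C3 and, again, ABCC2 were the 1 gene in each that changed by at least 1.5 times, a size that 3.54%, 3.13% and 0.69% of all genes reached with an adjusted p below 0.05. With limma on log2(TPM + 1), 11, 7 and 4 of the 43 passed. The first comparison then lost KEAP1, HMOX1, GCLM, TXNRD1, PRDX3 and CAT, the second NFE2L2, UGDH, AKR1C3, ABCC3, GSR, TXN, SOD2 and CAT, and the last UGDH, GPX1 and FTH1. DESeq2 on the counts lost CAT in the first, AKR1C3 and SOD2 in the second and UGDH in the last.

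**Figure D2:**
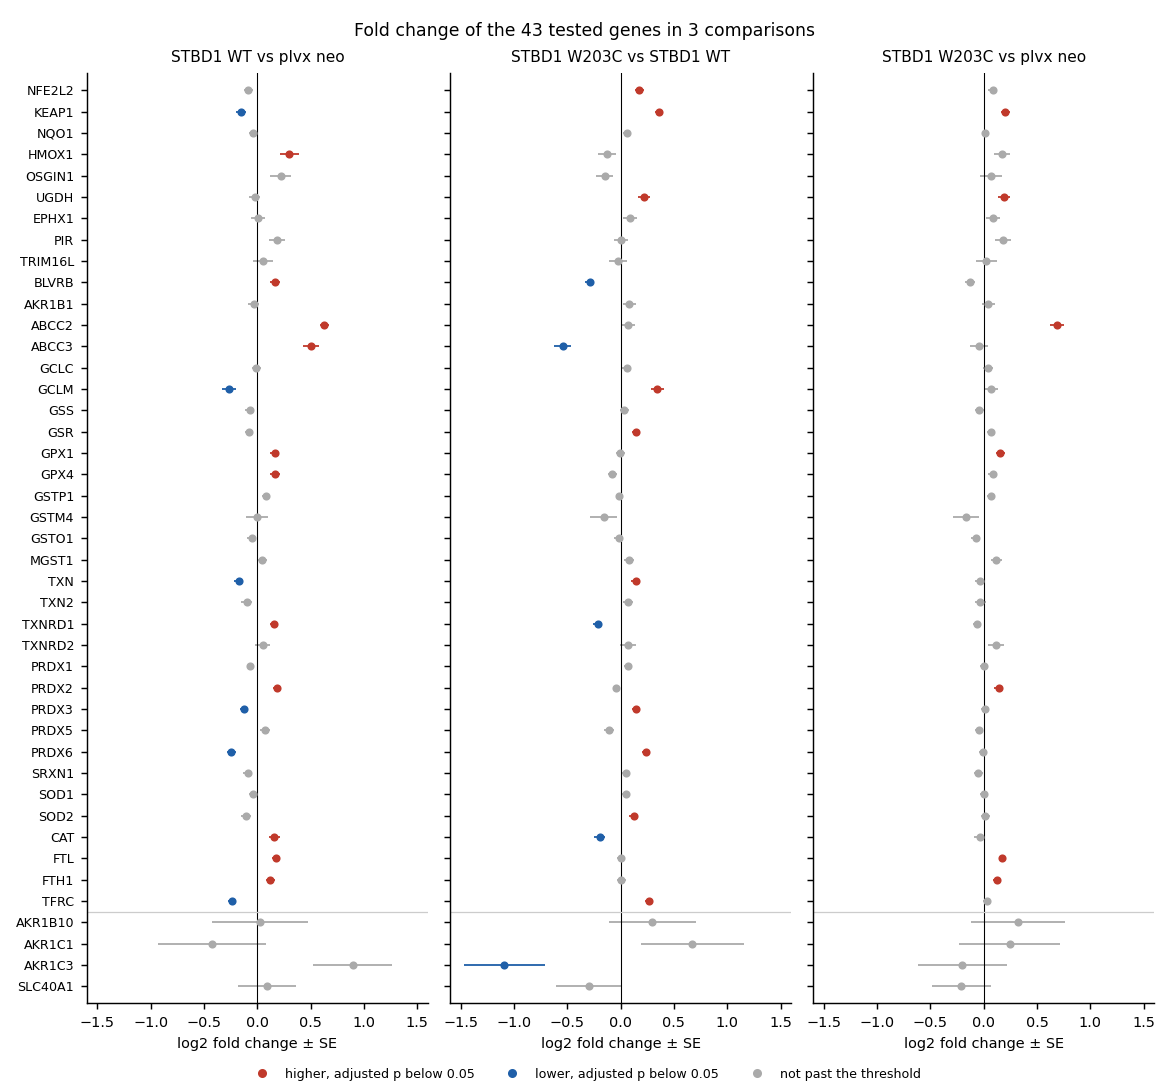
Log2 fold change with its SE for the 43 tested genes in the 3 comparisons (left to right, STBD1 WT vs plvx neo, W203C vs WT, W203C vs plvx neo), coloured by direction where the edgeR adjusted p was below 0.05; the 4 genes under the grey line had few counts and wide errors. Counts of coloured points are 17, 15 and 7, and the points of ABCC2 lie near 0.63, 0.07 and 0.69.

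Both regulators were higher in STBD1 W203C than in STBD1 WT. KEAP1 (ENSG00000079999, chromosome 19, 10486125 to 10503558, minus strand, hg38) was at 150, 134 and 141 CPM in plvx neo, 133, 129 and 121 in STBD1 WT, and 164, 161 and 165 in STBD1 W203C. In CPM the 3 groups did not overlap, with STBD1 WT lowest and STBD1 W203C highest. In TPM, KEAP1 overlapped between plvx neo (63.89 to 67.09) and STBD1 WT (55.27 to 64.83). Its log2 fold change was 0.36 (SE 0.0405, edgeR adjusted p = 1.3e-06) between the constructs and 0.20 (SE 0.0424, edgeR adjusted p = 0.00428) in STBD1 W203C against plvx neo, and both calls held whichever library was left out. For STBD1 WT against plvx neo it was -0.15 (SE 0.0462, edgeR adjusted p = 0.0172). That call was lost without plvx neo replicate 1, plvx neo replicate 3 or STBD1 WT replicate 3, with edgeR adjusted p of 0.0989, 0.055 and 0.0949.

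NFE2L2 (ENSG00000116044, chromosome 2, 177218667 to 177392756, minus strand) was at 94.2, 93.3 and 91.5 CPM in plvx neo, 85.2, 90.2 and 88.0 in STBD1 WT, and 98.3, 101 and 97.2 in STBD1 W203C. In CPM the groups again did not overlap and STBD1 W203C was highest. In TPM, NFE2L2 overlapped between plvx neo (38.95 to 40.92) and STBD1 WT (36.59 to 39.43). It was higher in STBD1 W203C than in STBD1 WT by 0.17 (SE 0.0425, edgeR adjusted p = 0.0037), whereas the log2 fold changes against plvx neo were -0.09 (edgeR adjusted p = 0.145) for STBD1 WT and 0.08 (edgeR adjusted p = 0.307) for STBD1 W203C. NFE2L2 overlaps HNRNPA3 and AGPS on the opposite strand, and whether counting used strand was not stated. The TPM of KEAP1 per TPM of NFE2L2 was 1.56 to 1.72 in plvx neo, 1.40 to 1.77 in STBD1 WT and 1.77 to 1.90 in STBD1 W203C.

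**Figure D3:**
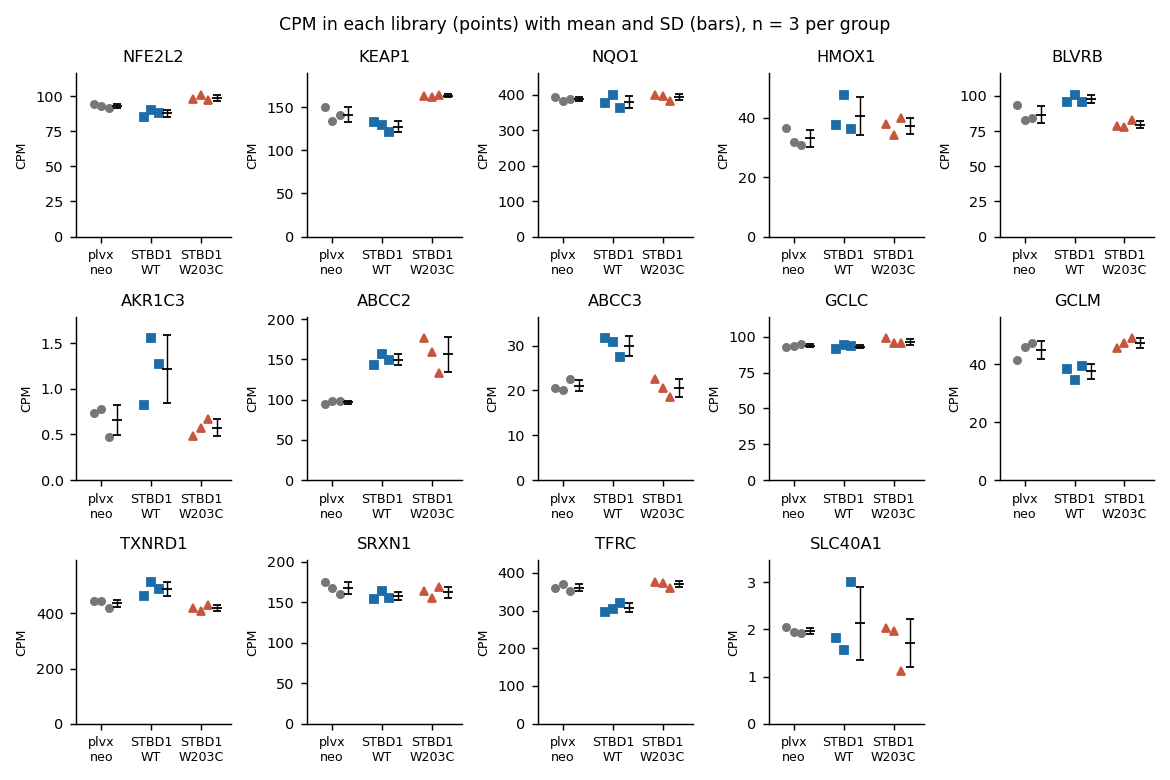
CPM in each library for 14 genes, with points for the 3 libraries of a group and a bar for mean and SD (n = 3); each axis starts at 0 and is scaled to its gene. ABCC2 is raised in both construct groups, ABCC3 in STBD1 WT alone among the 3 groups, and KEAP1 and GCLM are lowest in STBD1 WT, while NQO1, GCLC and SRXN1 are level.

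NQO1 and 7 further genes act in detoxification and haem breakdown. NQO1 (chromosome 16, 69706996 to 69726668, minus strand) was at 393, 382 and 390 CPM in plvx neo, 377, 399 and 363 in STBD1 WT, and 401, 397 and 384 in STBD1 W203C, so that the groups overlapped. Its log2 fold changes were -0.04, 0.06 and 0.02 (SE 0.0381, 0.0392 and 0.0353), with edgeR adjusted p of 0.525, 0.298 and 0.871. HMOX1 (chromosome 22, 35380361 to 35394214, plus strand), which opens the haem ring, was at 36.4, 32.0 and 30.8 CPM in plvx neo, 37.6, 47.8 and 36.3 in STBD1 WT, and 37.9, 34.3 and 39.8 in STBD1 W203C. It was higher in STBD1 WT than in plvx neo by 0.30 (SE 0.0880, edgeR adjusted p = 0.0147), although the lowest STBD1 WT library lay below the highest plvx neo library. The call rested on STBD1 WT replicate 2 and on plvx neo replicate 3, with edgeR adjusted p of 0.189 and 0.0921 without them. It also did not pass once GC content and length were corrected for (0.20). No other comparison of HMOX1 passed.

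BLVRB (chromosome 19, 40447765 to 40465764, minus strand), a biliverdin and flavin reductase, was at 93.5, 82.62 and 84.2 CPM in plvx neo, 95.9, 101 and 95.8 in STBD1 WT, and 78.4, 77.8 and 82.55 in STBD1 W203C. In CPM, STBD1 WT was the highest group, without overlap. STBD1 W203C was the lowest, but its highest library (82.55 CPM) almost reached the lowest of plvx neo (82.62 CPM). The difference between STBD1 W203C and plvx neo did not pass. In TPM, BLVRB overlapped between plvx neo (140.79 to 150.61) and STBD1 W203C (134.92 to 141.17). It was lower in STBD1 W203C than in STBD1 WT by a log2 fold change of -0.29 (SE 0.0439, edgeR adjusted p = 4.23e-05), a call kept without each library. The rise of 0.17 in STBD1 WT against plvx neo (edgeR adjusted p = 0.0143) was lost without plvx neo replicate 2, plvx neo replicate 3 or STBD1 WT replicate 2 (edgeR adjusted p of 0.0611, 0.0898 and 0.0983) and with the correction for GC content and length (0.09).

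UGDH, which makes the UDP-glucuronate used for conjugation, had 53.1 to 56.8 CPM in plvx neo, 52.8 to 56.2 in STBD1 WT and 59.0 to 66.0 in STBD1 W203C. In CPM the STBD1 W203C libraries lay above all others. In TPM, UGDH in STBD1 W203C (22.75 to 29.16) overlapped plvx neo (22.38 to 24.14) and STBD1 WT (22.67 to 23.93). Its log2 fold change was 0.22 (SE 0.0534, edgeR adjusted p = 0.00347) against STBD1 WT and 0.19 (SE 0.0552, edgeR adjusted p = 0.0389) against plvx neo. The second call was lost without plvx neo replicate 1 or 3 or STBD1 W203C replicate 1 or 2 (edgeR adjusted p of 0.0914, 0.179, 0.223 and 0.131). OSGIN1, an oxidative stress-induced growth inhibitor, the microsomal epoxide hydrolase EPHX1, the pirin gene PIR and TRIM16L passed no comparison. Omitting plvx neo replicate 3 made OSGIN1 pass in STBD1 WT against plvx neo (0.37, edgeR adjusted p = 0.00494). The gene nearest to passing was PIR in STBD1 WT against plvx neo, at 0.18 (edgeR adjusted p = 0.0639), where all STBD1 WT libraries (28.7 to 30.0 CPM) lay above those of plvx neo (23.9 to 28.5 CPM), and it passed without plvx neo replicate 1 (edgeR adjusted p = 0.0146).

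Aldo-keto reductases, NADPH-dependent enzymes that reduce carbonyls and steroids, were measured at the edge of detection apart from AKR1B1. AKR1C3 (chromosome 10, 5035354 to 5107686, plus strand) was at 0.73, 0.77 and 0.47 CPM in plvx neo, 0.82, 1.56 and 1.27 in STBD1 WT, and 0.48, 0.58 and 0.67 in STBD1 W203C. The STBD1 WT libraries lay above all others, with expected counts of 9 to 36 over the 9 libraries. Its log2 fold change between the constructs was -1.09 (SE 0.376, edgeR adjusted p = 0.0345), and the call was lost without STBD1 WT replicate 2 or 3 or any 1 STBD1 W203C library, with edgeR adjusted p between 0.0666 and 0.197. For STBD1 WT against plvx neo the change of 0.89 did not pass (edgeR adjusted p = 0.0775). Since reads of AKR1C1, AKR1C2 and AKR1C3 can be divided among them, their summed TPM was also compared. It was 0.92 to 1.81 TPM in plvx neo, 1.31 to 1.76 in STBD1 WT and 1.19 to 3.65 in STBD1 W203C, and the exact two-sided permutation test gave p = 0.7, 0.5 and 0.4 in the 3 comparisons, where 3 against 3 libraries allow no p below 0.1. In TPM, AKR1C3 alone overlapped between the constructs as well, at 0.87 to 1.32 in STBD1 WT and 0.6 to 1.35 in STBD1 W203C. AKR1B1 (45.4 to 54.2 CPM), AKR1B10 and AKR1C1 passed no comparison.

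Of the changes against plvx neo that passed, those in ABCC2 were the largest among the 43 genes. ABCC2 (ENSG00000023839, chromosome 10, 99782640 to 99852594, plus strand) is the apical pump MRP2, which exports glutathione and glucuronide conjugates. It was at 94.2, 97.7 and 97.7 CPM in plvx neo, 143, 156 and 150 in STBD1 WT, and 176, 159 and 133 in STBD1 W203C. Both construct groups lay above plvx neo in every library and overlapped each other. The log2 fold change was 0.63 (SE 0.0433, edgeR adjusted p = 1.84e-09) in STBD1 WT and 0.69 (SE 0.0649, edgeR adjusted p = 1.31e-07) in STBD1 W203C against plvx neo, kept without each library, and 0.07 (SE 0.0644, edgeR adjusted p = 0.483) between the constructs. Without STBD1 W203C replicate 3 the last difference passed, at 0.17 (edgeR adjusted p = 0.0114). The levels in STBD1 WT and STBD1 W203C were 1.54 and 1.61 times the plvx neo level.

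ABCC3 (ENSG00000108846, chromosome 17, 50634777 to 50692253, plus strand), the basolateral pump MRP3 for the same class of conjugates, followed another course. It was at 20.6, 20.1 and 22.6 CPM in plvx neo, 31.7, 30.8 and 27.5 in STBD1 WT, and 22.5, 20.4 and 18.6 in STBD1 W203C. Only the STBD1 WT libraries stood apart among the 3 groups. Its log2 fold change was 0.50 (SE 0.0748, edgeR adjusted p = 4.38e-05) in STBD1 WT against plvx neo, -0.54 (SE 0.0800, edgeR adjusted p = 3.12e-05) between the constructs and -0.04 (SE 0.0841, edgeR adjusted p = 0.85) in STBD1 W203C against plvx neo. The first 2 calls were kept without each library.

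Glutathione is made in 2 steps, by glutamate-cysteine ligase and then GSS, and GSR returns the oxidised form to the reduced one. The modifier subunit of the ligase, GCLM (ENSG00000023909, chromosome 1, 93885199 to 93909456, minus strand), was at 41.5, 46.1 and 47.2 CPM in plvx neo, 38.4, 34.7 and 39.5 in STBD1 WT, and 45.7, 47.3 and 49.1 in STBD1 W203C. STBD1 WT was below the other two groups in every library. The log2 fold change was -0.27 (SE 0.0663, edgeR adjusted p = 0.00441) in STBD1 WT against plvx neo and 0.34 (SE 0.0616, edgeR adjusted p = 0.000251) between the constructs, both kept without each library, and 0.07 (edgeR adjusted p = 0.599) in STBD1 W203C against plvx neo.

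The catalytic subunit GCLC (chromosome 6, 53497341 to 53616970, minus strand) was at 92.5, 93.4 and 94.6 CPM in plvx neo, 91.7, 94.1 and 93.4 in STBD1 WT, and 99, 95.2 and 95.4 in STBD1 W203C. It passed no comparison, with log2 fold changes of -0.01, 0.06 and 0.04 (SE 0.0421, 0.0415 and 0.0432, edgeR adjusted p of 0.865, 0.329 and 0.678). The TPM of GCLC per TPM of GCLM was 2.23 to 2.52 in plvx neo, 2.53 to 3.2 in STBD1 WT and 2.14 to 2.46 in STBD1 W203C, the STBD1 WT libraries being highest. GSR was higher in STBD1 W203C (190 to 198 CPM) than in STBD1 WT (173 to 177 CPM) by 0.15 (SE 0.0368, edgeR adjusted p = 0.00468), with plvx neo between (179 to 191 CPM). GSS passed no comparison.

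Of the enzymes that spend glutathione, the selenium-dependent peroxidases GPX1 and GPX4 were higher in STBD1 WT than in plvx neo. GPX1 was at 225, 215 and 217 CPM in plvx neo, 259, 247 and 231 in STBD1 WT, and 239, 235 and 260 in STBD1 W203C, with both construct groups above plvx neo. Its log2 fold change was 0.16 (SE 0.0416, edgeR adjusted p = 0.00629) in STBD1 WT and 0.15 (SE 0.0400, edgeR adjusted p = 0.0207) in STBD1 W203C against plvx neo. GPX4, which reduces lipid peroxides, was at 201, 183 and 189 CPM in plvx neo, 227, 210 and 207 in STBD1 WT, and 208, 205 and 196 in STBD1 W203C, and was higher in STBD1 WT by 0.17 (SE 0.0436, edgeR adjusted p = 0.00738). Leaving out STBD1 WT replicate 1 ended both calls in STBD1 WT against plvx neo, with edgeR adjusted p of 0.051 for GPX1 and 0.0596 for GPX4. For STBD1 W203C against plvx neo the GPX1 call was lost without plvx neo replicate 2 or 3 or STBD1 W203C replicate 3 (edgeR adjusted p of 0.0517, 0.111 and 0.0896). With each library corrected for GC content and length, GPX1 and GPX4 no longer passed in STBD1 WT against plvx neo, at 0.01 and 0.05. The transferases GSTP1, GSTM4, GSTO1 and MGST1 passed no comparison. GSTP1 was at 414 to 448 CPM in plvx neo, 449 to 460 in STBD1 WT and 440 to 455 in STBD1 W203C, with log2 fold changes of 0.08, -0.01 and 0.07, and it passed in the first comparison without plvx neo replicate 1 (edgeR adjusted p = 0.0327). MGST1 passed between the constructs without STBD1 W203C replicate 1 (0.14, edgeR adjusted p = 0.0379).

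In the thioredoxin system the disulfide reductant and its reductase moved in opposite directions. Thioredoxin, TXN, was at 338, 312 and 333 CPM in plvx neo, 283, 297 and 293 in STBD1 WT, and 310, 306 and 345 in STBD1 W203C, and STBD1 WT was below both other groups in every library. It was lower in STBD1 WT than in plvx neo by a log2 fold change of -0.18 (SE 0.0378, edgeR adjusted p = 0.00146), kept without each library. Between the constructs it was higher by 0.14 (SE 0.0423, edgeR adjusted p = 0.0138), which was lost without STBD1 WT replicate 1 or STBD1 W203C replicate 3 (edgeR adjusted p of 0.0525 and 0.0918).

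The cytosolic reductase TXNRD1 (ENSG00000198431, chromosome 12, 104215779 to 104350307, plus strand), a selenoenzyme, was at 445, 444 and 421 CPM in plvx neo, 462, 516 and 489 in STBD1 WT, and 418, 410 and 432 in STBD1 W203C. In CPM the STBD1 WT libraries were the highest, without overlap. In TPM, TXNRD1 overlapped between plvx neo (148.51 to 167.72) and STBD1 WT (166.38 to 184.59). It was lower in STBD1 W203C than in STBD1 WT by a log2 fold change of -0.21 (SE 0.0403, edgeR adjusted p = 0.000404), kept without each library. The rise of 0.16 in STBD1 WT against plvx neo (SE 0.0407, edgeR adjusted p = 0.00645) was lost without plvx neo replicate 3 or STBD1 WT replicate 2 (edgeR adjusted p of 0.0643 and 0.0572). The mitochondrial counterparts TXN2 and TXNRD2 passed no comparison.

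Most peroxiredoxins use thioredoxin to reduce peroxides, and the listed peroxiredoxins did not move together. PRDX6, a one-cysteine enzyme that also acts on phospholipids, was at 238, 238 and 241 CPM in plvx neo, 204, 194 and 211 in STBD1 WT, and 229, 237 and 248 in STBD1 W203C. It was lower in STBD1 WT than in plvx neo (log2 fold change -0.24, SE 0.0385, edgeR adjusted p = 8.26e-05) and higher in STBD1 W203C than in STBD1 WT (0.24, SE 0.0409, edgeR adjusted p = 0.000161), kept without each library. The mitochondrial PRDX3 ran the same way at a smaller size, from 338 to 360 CPM in plvx neo to 317 to 329 in STBD1 WT and 352 to 363 in STBD1 W203C, with log2 fold changes of -0.13 (edgeR adjusted p = 0.0158) and 0.14 (edgeR adjusted p = 0.00383). Its first call was lost without plvx neo replicate 1 or 2 or STBD1 WT replicate 3 (edgeR adjusted p of 0.0531, 0.059 and 0.0609).

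PRDX2, a cytosolic enzyme, was at 163, 150 and 157 CPM in plvx neo, 183, 177 and 174 in STBD1 WT, and 171, 174 and 173 in STBD1 W203C, so both construct groups were above plvx neo. Its log2 fold change was 0.18 (SE 0.0402, edgeR adjusted p = 0.00191) in STBD1 WT, kept without each library, and 0.14 (SE 0.0399, edgeR adjusted p = 0.0391) in STBD1 W203C. Every library but plvx neo replicate 1 ended the second call when left out (edgeR adjusted p between 0.0602 and 0.141). PRDX1 and PRDX5 passed no comparison, although PRDX5 passed without STBD1 WT replicate 3 in STBD1 WT against plvx neo (0.13, edgeR adjusted p = 0.04) and between the constructs (-0.17, edgeR adjusted p = 0.00596). SRXN1 (chromosome 20, 646615 to 653200, minus strand), the sulfiredoxin that restores over-oxidised peroxiredoxins, was at 175, 167 and 159 CPM in plvx neo, 153, 163 and 156 in STBD1 WT, and 164, 155 and 168 in STBD1 W203C. These groups overlapped, and its log2 fold changes of -0.09, 0.05 and -0.05 (SE 0.0419, 0.0412 and 0.0426) did not pass (edgeR adjusted p of 0.112, 0.422 and 0.587).

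Superoxide dismutases and catalase changed little. Catalase, CAT, was at 58.5, 59.2 and 58.2 CPM in plvx neo, 63.8, 67.2 and 66.1 in STBD1 WT, and 55.5, 61.0 and 55.5 in STBD1 W203C. It was higher in STBD1 WT than in plvx neo by 0.16 (SE 0.0477, edgeR adjusted p = 0.0159) and lower in STBD1 W203C than in STBD1 WT by a log2 fold change of -0.19 (SE 0.0514, edgeR adjusted p = 0.00683). The first call was lost without plvx neo replicate 3 or STBD1 WT replicate 2 (edgeR adjusted p of 0.0585 and 0.0848) and with DESeq2, and the second was kept without each library. The mitochondrial dismutase SOD2 was at 97.9 to 108 CPM in STBD1 WT, 110 to 115 in plvx neo and 111 to 115 in STBD1 W203C. Its difference of 0.12 between the constructs (SE 0.0435, edgeR adjusted p = 0.0373) was lost in each fit without 1 library except STBD1 WT replicate 2 (edgeR adjusted p between 0.055 and 0.159). SOD2 overlaps WTAP and ACAT2 on the opposite strand. Its table entry carries no symbol in the name table supplied and was found through 14 of its 15 annotated transcripts. The cytosolic SOD1 passed no comparison.

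Iron handling gave the most abundant changed genes. The light ferritin chain FTL was at 963, 907 and 956 CPM in plvx neo, 1049, 1099 and 1046 in STBD1 WT, and 1063, 1052 and 1080 in STBD1 W203C. Both construct groups were above plvx neo, by 0.17 each (SE 0.0363 and 0.0337, edgeR adjusted p of 0.00133 and 0.00216), kept without each library. The heavy chain FTH1 was at 1547, 1391 and 1477 CPM in plvx neo, 1620, 1661 and 1543 in STBD1 WT, and 1581, 1595 and 1659 in STBD1 W203C. Its log2 fold changes of 0.12 (edgeR adjusted p = 0.0281) and 0.13 (edgeR adjusted p = 0.0429) against plvx neo were kept in 2 and 1, respectively, of 6 fits omitting a library in turn. Of the libraries whose removal ended a call, plvx neo replicate 2 gave the highest edgeR adjusted p, at 0.159 and 0.157, and plvx neo replicate 3 gave 0.0967 and 0.134. The others were STBD1 WT replicates 1 and 2 (0.082 and 0.12) and STBD1 W203C replicates 1 to 3 (0.0967, 0.0954 and 0.0736). The summed TPM of both chains was 4693 to 4997 in plvx neo, 5358 to 5628 in STBD1 WT and 5528 to 5750 in STBD1 W203C, and FTH1 per FTL stayed between 2.00 and 2.18 in all libraries.

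TFRC (chromosome 3, 196012511 to 196082153, minus strand), the transferrin receptor that brings iron in and whose RNA is stabilised when iron is scarce, was at 361, 370 and 351 CPM in plvx neo, 297, 305 and 321 in STBD1 WT, and 377, 372 and 360 in STBD1 W203C. STBD1 WT was lowest in every library. It was lower in STBD1 WT than in plvx neo by a log2 fold change of -0.23 (SE 0.0382, edgeR adjusted p = 0.000114) and higher in STBD1 W203C than in STBD1 WT by 0.27 (SE 0.0380, edgeR adjusted p = 1.79e-05), kept without each library. STBD1 W203C and plvx neo differed by 0.03 (edgeR adjusted p = 0.718). The TPM of FTH1 per TPM of TFRC was 30.8 to 35.7 in plvx neo, 40.7 to 49.3 in STBD1 WT and 35.9 to 42.3 in STBD1 W203C. The iron exporter SLC40A1, ferroportin (chromosome 2, 189560590 to 189583758, minus strand), was at 2.04, 1.93 and 1.93 CPM in plvx neo, 1.82, 1.56 and 3.01 in STBD1 WT, and 2.04, 1.96 and 1.11 in STBD1 W203C, too few reads to show a difference (log2 fold changes 0.09, -0.30 and -0.21, SE 0.269, 0.305 and 0.276, edgeR adjusted p of 0.838, 0.511 and 0.75).

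GC content, taken from the longest annotated transcript of each gene, moved with the fold changes. For STBD1 WT against plvx neo the 11 higher genes had a median GC content of 56.0%, from 44.6% to 64.1%, and the 6 lower genes a median of 42.0%, from 36.8% to 60.8%. Across the 43 genes, which are not independent and share the same 6 libraries, Spearman's rho between GC content and log2 fold change was 0.47, and across 15158 genes with a GC content it was 0.22. Between the constructs the rho was -0.42 over the 43 and -0.18 over 14924 genes, and in STBD1 W203C against plvx neo it was 0.13 and 0.07. When each library was corrected for GC content and length, 17 of the 43 genes still passed in STBD1 WT against plvx neo, but with 7 higher and 10 lower in place of 11 and 6. HMOX1, BLVRB, GPX1 and GPX4 no longer passed, with corrected log2 fold changes of 0.20, 0.09, 0.01 and 0.05. GSS, GSR, TXN2 and SRXN1 passed as lower, at -0.11, -0.09, -0.17 and -0.12. Across all genes, the share of changed genes that were higher went from 50% to 36.0%. The fold changes of ABCC2 and ABCC3 remained at 0.60 and 0.43, and that of KEAP1 grew to -0.28.

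Between the constructs, the same correction gave 20 genes, 15 higher and 5 lower, in place of 10 and 5. The 15 found without correction were all among them, and GPX1, GSTP1, TXN2, TXNRD2 and PRDX1 were added as higher. The share of changed genes that were higher went from 51.8% to 66.4% over all genes, and it was 68.8% with limma on log2(TPM + 1). For STBD1 W203C against plvx neo the correction kept the same 7 genes, and the share of changed genes that were higher over all genes was 53.2% without it, 59.2% with it and 74.0% with limma on log2(TPM + 1).

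**Figure D4:**
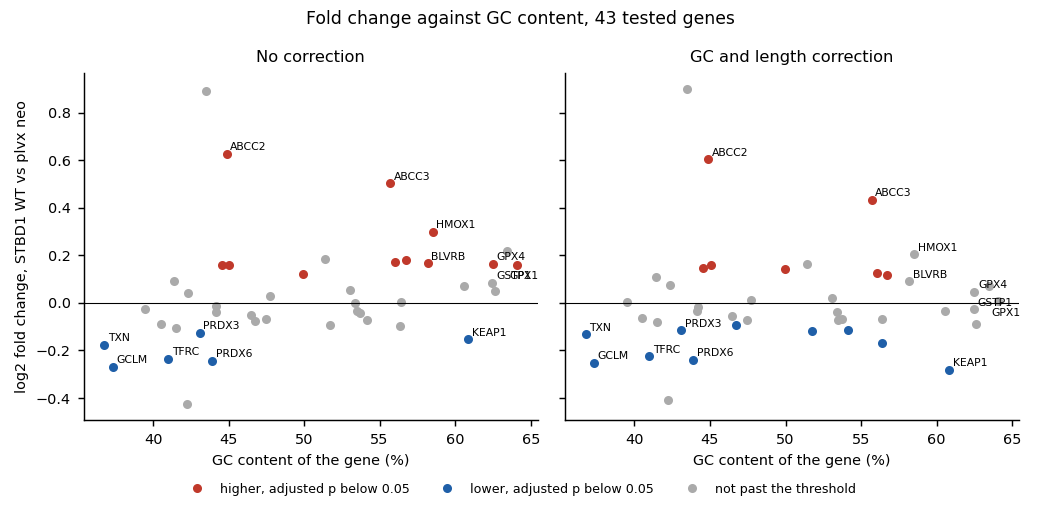
Log2 fold change in STBD1 WT against plvx neo against the GC content (%) of each of the 43 tested genes, without correction on the left and with each library corrected for GC content and length on the right; colours give the direction where the edgeR adjusted p was below 0.05. Without correction 11 genes are higher and 6 lower, and with it 7 are higher and 10 lower. Among the genes that passed, ABCC2 and ABCC3 stay the highest. AKR1C3, which did not pass, lies above them without correction.

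A further 88 genes of the same pathways (partners and repressors of NRF2, other targets, and other glutathione, thioredoxin and iron genes) had been listed beside the 45, and 75 could be tested. The shares of them that changed stand against 27.8%, 27.9% and 5.7% of all genes tested in the 3 comparisons. For STBD1 WT against plvx neo 33 changed (44%), 17 higher and 16 lower, between the constructs 25 (33.3%), 11 higher and 14 lower, and in STBD1 W203C against plvx neo 9 (12%), 5 higher and 4 lower. SQSTM1, the autophagy receptor that binds KEAP1, was at 375, 358 and 365 CPM in plvx neo, 648, 665 and 631 in STBD1 WT, and 543, 521 and 528 in STBD1 W203C. In CPM all 3 groups stood apart, with log2 fold changes of 0.82 (SE 0.0358, edgeR adjusted p = 1.43e-12) and 0.53 (SE 0.0350, edgeR adjusted p = 3.04e-10) against plvx neo and -0.28 between the constructs. With limma on log2(TPM + 1) the difference between the constructs was -0.09 and did not pass (limma adjusted p = 0.66).

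CHAC1, which breaks glutathione down in the cytosol, was at 11.6, 12.6 and 11.4 CPM in plvx neo, 7.64, 6.18 and 5.96 in STBD1 WT, and 6.44, 6.05 and 9.70 in STBD1 W203C. Both construct groups lay below plvx neo, with log2 fold changes of -0.85 (SE 0.117, edgeR adjusted p = 1.71e-05) and -0.68 (SE 0.137, edgeR adjusted p = 0.00262). SLC7A11, the cystine importer that supplies glutathione synthesis, was singled out after its values were seen. It was at 63.9, 78.1 and 65.5 CPM in plvx neo, 43.4, 47.6 and 46.0 in STBD1 WT, and 60.0, 53.9 and 58.7 in STBD1 W203C, plvx neo being highest and STBD1 WT lowest without overlap, with log2 fold changes of -0.60 (SE 0.0680, edgeR adjusted p = 1.55e-06) in STBD1 WT against plvx neo, 0.34 (SE 0.0563, edgeR adjusted p = 0.000126) between the constructs and -0.27 (SE 0.0654, edgeR adjusted p = 0.0127) in STBD1 W203C against plvx neo. The last call was lost without plvx neo replicate 2 or STBD1 W203C replicate 2 (edgeR adjusted p of 0.0965 and 0.091). With limma on log2(TPM + 1) the last 2 differences of SLC7A11 did not pass (limma adjusted p of 0.0742 and 0.388), nor did CHAC1 in STBD1 W203C against plvx neo (limma adjusted p = 0.236).

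The carbonyl reductase CBR3 (0.74) and the transferase GSTM2 (0.65) were higher in STBD1 WT than in plvx neo (edgeR adjusted p of 0.0187 and 0.0445), but neither passed with DESeq2. The call of CBR3 was lost without plvx neo replicate 2 or STBD1 WT replicate 2 (edgeR adjusted p of 0.0598 and 0.106), and that of GSTM2 was kept only without STBD1 WT replicate 3, with edgeR adjusted p between 0.0549 and 0.167 in the other fits. Between the constructs, CBR3 (-0.68), the sestrin SESN3 (-0.65), the glutaredoxin GLRX (-0.50) and the gamma-glutamyltransferase relative GGT7 (-0.48) were lower, with edgeR adjusted p of 0.0488, 0.00211, 8.65e-05 and 0.000821. CBR3 did not pass with DESeq2 (DESeq2 adjusted p = 0.143), limma on log2(TPM + 1) or the GC and length correction, and SESN3 did not with limma (limma adjusted p = 0.229). All but CBR3 kept the call without each library, and that of CBR3 was kept only without STBD1 W203C replicate 2, with edgeR adjusted p between 0.0617 and 0.22 in the other fits. For STBD1 W203C against plvx neo, HFE, a regulator of iron uptake, and TRIM16 were higher by 0.43 and 0.35 (edgeR adjusted p of 0.00216 and 0.000998), kept without each library but not with limma on log2(TPM + 1) (limma adjusted p of 0.118 and 0.0505).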

How the data were processed

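RNA-seq was made from 9 HCT116 libraries in 3 groups of 3. According to the study's methods, libraries came from TRIzol-extracted RNA with the NEBNext Ultra kit and were sequenced as read pairs. Per the submitters' processing notes STAR 2.7.1a and RSEM 1.3.1 were used with hg38, and the gene models were those of Ensembl release 93. The deposited tables hold, per gene, the RSEM expected count, which divides ambiguous read pairs among transcripts, and the authors' TPM, which is scaled by effective length. Use of strand is not given in the sources used here.

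Expected counts were rounded, filtered with filterByExpr, scaled by TMM and tested with the two-sided quasi-likelihood F-test of edgeR 4.0.16 (R 4.3.3), with the 6 libraries of each comparison fitted alone and a Benjamini-Hochberg adjusted p below 0.05. The SE is the absolute log2 fold change divided by the square root of F. CPM came from TMM over all 9 libraries. p-values measure the spread between these libraries, which may be technical, since the sources do not tie them to separate infections. Alternatives were DESeq2 1.42.0, limma 3.58.1 on log2(TPM + 1), other scaling and filters, a correction for GC content and length by splines with 5 degrees of freedom, all 9 libraries in 1 fit, a fold of at least 1.5 times and leaving out each library. Gene names came from a supplied table (98.9% of 58395 matched), coordinates and overlaps from GENCODE on the same build, promoters from RefSeq. GC content was that of each gene's longest GENCODE transcript, which need not be the one expressed.

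Members, lists and tests were chosen with earlier results of these data known. Values per library are given for NFE2L2, KEAP1, NQO1, HMOX1, GCLC, GCLM, TXNRD1, SRXN1 and SLC40A1 and for changed, non-overlapping members with an absolute log2 fold change of at least 0.25, and for other changed members where they show the pattern. For other pathway genes the 4 largest changes of each comparison are named. With total counts of 16.9 to 23.3 M, genes below about 1 CPM rest on few reads.

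The replicate numbers in the titles are shared by the groups. Deviations of same-numbered libraries from their group means correlated with r of -0.00703 to 0.0758 across genes, so the numbers were not taken to pair the samples.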

Additional observations from a re-analysis of the deposited data

How the results depend on the processing

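DESeq2 size factors in place of TMM and dropping the filter on low counts changed no call among the 43. With limma on log2(TPM + 1), for the 3 comparisons in the order used above, 1751, 1828 and 131 genes of all passed, 11, 7 and 4 of the 43, 4 and 5 of the named ones in the first 2 comparisons, and 18, 12 and 1 of the other pathway genes. With a change of at least 1.5 times, 541, 471 and 104 genes of all passed, 1 of the 43 in each, which was also 1 of the named ones, and 5, 2 and 1 of the other pathway genes. With the replicate block, 19, 13 and 7 of the 43 passed. OSGIN1 and PIR were gained in the first comparison and AKR1C3 and SOD2 lost in the second, and no other call among the 43 changed with this pairing. With the block and the correction for GC content and length together, 18, 17 and 6 passed, without TXN in the second comparison and GPX1 in the last. With all 9 libraries in 1 fit, FTH1 was lost in the last comparison. Leaving out 1 library gave 3317 to 3794, 3307 to 3618 and 459 to 818 genes of all, 12 to 17, 13 to 14 and 3 to 6 of the 43, 4 to 8, 7 to 8 and 2 of the named ones, and 19 to 28, 17 to 22 and 5 to 9 of the other pathway genes, where fewer samples enter. Between the constructs, GPX1 turned from -0.0014 to 0.12 and GSTP1 from -0.01 to 0.0917 with the correction for GC content and length, and GPX1 to 0.12 with the block added. The looser promoter motif matched 27 promoters in place of 10. Over single genes, 50 calls were lost and 7 gained in the fits without 1 library, 17 lost with limma, 4 lost with DESeq2, 2 gained and 2 lost with the block, and 7 gained and 4 lost with the GC and length correction beside those that turned. A further 86 values that passed in neither fit changed sign. The cause was not tested. Genes near 1 CPM, such as AKR1C3 and SLC40A1, are limited by depth.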
